A study of Mus musculus with 1646 samples.

Results

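The insulin-like growth factor (IGF) system was examined in mesenchymal cells of the adult mouse colon through 10 genes, the ligands Igf1 and Igf2, the receptors Igf1r and Igf2r, and the binding proteins Igfbp2 to Igfbp7. The members were found in the colon count table by matching its Ensembl identifiers to these symbols in GENCODE vM21, and all 10 were present among 46517 genes. The study sorted single cells of male mice, 10 to 20 weeks old and backcrossed to C57Bl6/J, from the colon into 384-well plates and made a SmartSeq2 library, which captures full-length transcripts without molecular identifiers, from each cell. Cells carried a fluorescent reporter and lacked the endothelial surface protein CD31. The mice were untreated and carried 1 of 4 reporters, and each comparison is between cell classes or between lines. PdgfrbGFP, a transgene in which Pdgfrb regulatory sequence drives GFP, gave 761 cells on 4 plates. Acta2GFP, with GFP under the smooth muscle actin promoter, gave 567 cells on 2 plates. PdgfraGFP, a knock-in that puts a nuclear GFP into the Pdgfra locus, gave 13.8% of the cells, from 2 plates, and Cspg4dsRED, a transgene with the red protein DsRed under Cspg4 sequence, gave 91 cells on 1 plate. Each line therefore enriches for the cells that use its promoter. The labels name no mouse, so the line is the unit of replication here, and p-values measure the spread between lines, which also differ in reporter and plate. For Acta2GFP mice the study also added elastase when the tissue was dissociated.

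The authors grouped the 1646 cells into 8 clusters and gave each a place. Of all cells 1307 (79.4%) were fibroblasts, with 13.5% placed at the crypt base (cluster 7), 25.8% from base to middle (cluster 5), 29.3% in the middle (cluster 1), 2.73% from middle to apex (cluster 6) and 7.96% at the apex beneath the surface epithelium (cluster 2). The mural cells, which wrap vessels or form muscle, made up 20.6%, with 8.63% pericytes (cluster 4), 8.57% vascular smooth muscle cells (cluster 3) and 3.40% interstitial smooth muscle cells (cluster 8). PdgfraGFP gave only 2 mural cells, and 52 of the 56 cells of cluster 8 came from Acta2GFP.

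IGF1 and IGF2 are small secreted growth factors that signal for survival, growth and division through IGF1R, a receptor tyrosine kinase that acts mainly by IRS adaptors, PI3K and AKT. IGF2R, also the cation-independent mannose 6-phosphate receptor, takes up IGF2 for breakdown in lysosomes and carries lysosomal enzymes. The high-affinity binding proteins hold the ligands in the circulation and in tissue, prolong their life and usually keep them from the receptor, and proteases such as PAPP-A cut them and so release ligand locally. IGFBP6 prefers IGF2, IGFBP5 binds extracellular matrix, and IGFBP7 binds IGFs only weakly and is best known as a vascular matrix protein. In the intestine, mesenchymal cells are known as a source of IGF1 for the epithelium.

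The sequence just before the start of transcription is shown for the 5 binding proteins Igfbp3 to Igfbp7, since they are expressed side by side in the same cells at levels that diverge along the crypt. Each is the 100 bases before the RefSeq start (GRCm38.p6, strand of the gene, 5′ to 3′), and capitals mark a TATA-like TATNNA on the gene's strand or a GC box, GGGCGG, on either strand. The windows are chr11:7213924-7214023 (minus strand) for Igfbp3, chr11:99041144-99041243 (plus) for Igfbp4, chr1:72874866-72874965 (minus) for Igfbp5, chr15:102144086-102144185 (plus) for Igfbp6 and chr5:77408046-77408145 (minus) for Igfbp7.
Igfbp3: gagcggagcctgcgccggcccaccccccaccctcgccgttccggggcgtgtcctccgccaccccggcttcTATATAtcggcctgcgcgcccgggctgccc
Igfbp4: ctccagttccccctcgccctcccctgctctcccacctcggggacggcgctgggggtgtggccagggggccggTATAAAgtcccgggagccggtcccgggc
Igfbp5: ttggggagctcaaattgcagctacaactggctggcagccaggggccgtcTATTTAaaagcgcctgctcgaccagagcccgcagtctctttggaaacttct
Igfbp6: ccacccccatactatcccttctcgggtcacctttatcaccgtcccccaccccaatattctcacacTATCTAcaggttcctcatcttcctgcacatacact
Igfbp7: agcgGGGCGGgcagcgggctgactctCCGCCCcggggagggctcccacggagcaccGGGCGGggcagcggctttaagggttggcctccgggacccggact
TATNNA began 30 bases before the start of Igfbp3, 28 before that of Igfbp4, 51 before that of Igfbp5 and 35 before that of Igfbp6. Igfbp7 had no TATNNA and 3 GC boxes. TATNNA was found in 4 of the 10 members and in 18.8% of 32851 RefSeq promoters of that length, and GGGCGG in 4 of the 10 and in 24.7%. The letters are a description and not evidence of binding. GENCODE starts Igfbp5 at 72874884, inside its window, and Igfbp6 at 102144362, downstream of its window.

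Depth and quality set how far the values can be read. Counts on genes ran from 47598 to 1494292 per cell, with a median of 248628, and levels are given as counts scaled to 500000 per cell and averaged over the cells of a cluster in a line with at least 10 such cells. The summed fibroblast markers Pdgfra, Dcn, Lum and Col1a1 lay between 2733 and 7777 in the line means of the 5 fibroblast clusters and between 112.1 and 1689.5 in the mural clusters, where the mural markers lay between 1866 and 6224 and in fibroblast clusters between 1.06 and 351.1. Single markers did not all follow their sum. Dcn was 931.8 in pericytes against 226.8 at the apex and 747.3 in cluster 6, Lum 107.9 in pericytes against 67.7 at the apex, and Notch3, a mural marker, only 0.213 in cluster 8. Among 8 endothelial markers Tek reached 112.1 in cluster 5 and 196.2 in cluster 7, whereas Pecam1 stayed between 5.37 and 12.7 and Cdh5 at or below 0.717 in every cluster. Tie1 (23.3), Emcn (10.1) and Egfl7 (13.7) were highest in pericytes, against at most 1.88, 2.01 and 7.28 in the other clusters, and the 8 endothelial markers summed to 66.2 to 102.8 in the line means of pericytes and 13.2 to 17.6 in those of vascular smooth muscle cells. Plate colon_1075s of PdgfraGFP stood apart from plate colon_439s of the same line, and the values of both plates are given where a result below was found to turn on it. None of 7823 genes with a count of at least 500 in some cell exceeded 2 counts per exon base, where the highest value over all these genes was 1.96, and among the members the highest values were 1.36 for Igfbp7 and 1.27 for Igfbp6. In the cluster where each was highest, cells above the median depth of their line had a lower scaled level than the other cells, by a ratio of 0.664 for Igfbp3, 0.689 for Igfbp4, 0.671 for Igfbp5, 0.747 for Igfbp6 and 0.825 for Igfbp7. For Igf1r and Igf2r it was 0.820 and 0.769, whereas in cluster 8 the deeper cells had more Igf1 (1.34) and Igf2 (2.03), and how far this shifts the levels was not tested. Since the authors built the clusters on these same counts, a test between clusters is no independent evidence for the classes.

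In the comparisons below the members called were Igf1 and Igfbp3 to Igfbp6. Igfbp3 was a gene of the middle fibroblasts, Igfbp6 was highest at the crypt base, Igfbp4 was high from base to middle and nearly lost in the middle-to-apex cluster, Igfbp5 was nearly lost at the apex, and Igfbp7 was high in all classes and highest in pericytes. Igf1 was made by lower fibroblasts and by interstitial smooth muscle cells, and Igf2 and both receptors were low throughout. Of these patterns, 7 differences between classes were tested on counts summed per line with edgeR's quasi-likelihood test, adjusted by Benjamini-Hochberg over all genes with a threshold of 0.05. Cluster 5 was tested only within all fibroblasts and within the mean of clusters 1, 5 and 7, and pericytes on their own only against vascular smooth muscle cells, so the other orders of levels are descriptions. Igfbp2 did not pass the filter on low counts, so 9 of the 10 members were tested.

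Fibroblasts and mural cells differed in 3 of 9 members, against a background of 6.57% of 19173 genes. Apex fibroblasts and the mean of clusters 1, 5 and 7 differed in 3 of 9, against 7.51% of 18924 genes. Crypt base and middle differed in 2 of 9 (0.909% of genes), middle-to-apex and middle in 2 of 9 (1.86%), and apex and middle-to-apex in 3 of 9 (2.1%). Pericytes and vascular smooth muscle cells differed in 0 of 9 (0.668% of 16328 genes), and interstitial and vascular smooth muscle cells in 1 of 9 (1.04%), where the interstitial cells form a single sum. These counts rest on few lines. Without PdgfrbGFP they were 1 for fibroblasts against mural cells (1.81% of genes), 1 for the apex (4.67%) and 1 for base against middle (0.221%). Without Acta2GFP they were 0 for base against middle (0.0748%) and 1 for apex against middle-to-apex (0.125%), and without Cspg4dsRED 1 for pericytes (2.44%) and 2 for interstitial cells (4.23%). The share of all genes called thus fell with the members in the former 2 settings. Without plate colon_1075s base against middle gave 4 (0.646%). With the reporter line as a replicate block the share of genes called for base against middle was 1.46%, with 3 members, and that for pericytes 1.04%, with 0 members. The median log2 fold change over the 9 members was 0.71, -0.44, -0.57, -1.56, 1.03, 0.56 and -0.05 in these 7 comparisons, in the order given, and over all genes tested -0.03, 0.02, -0.07, -0.29, 0.22, -0.03 and -0.30.

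**Figure D1:**
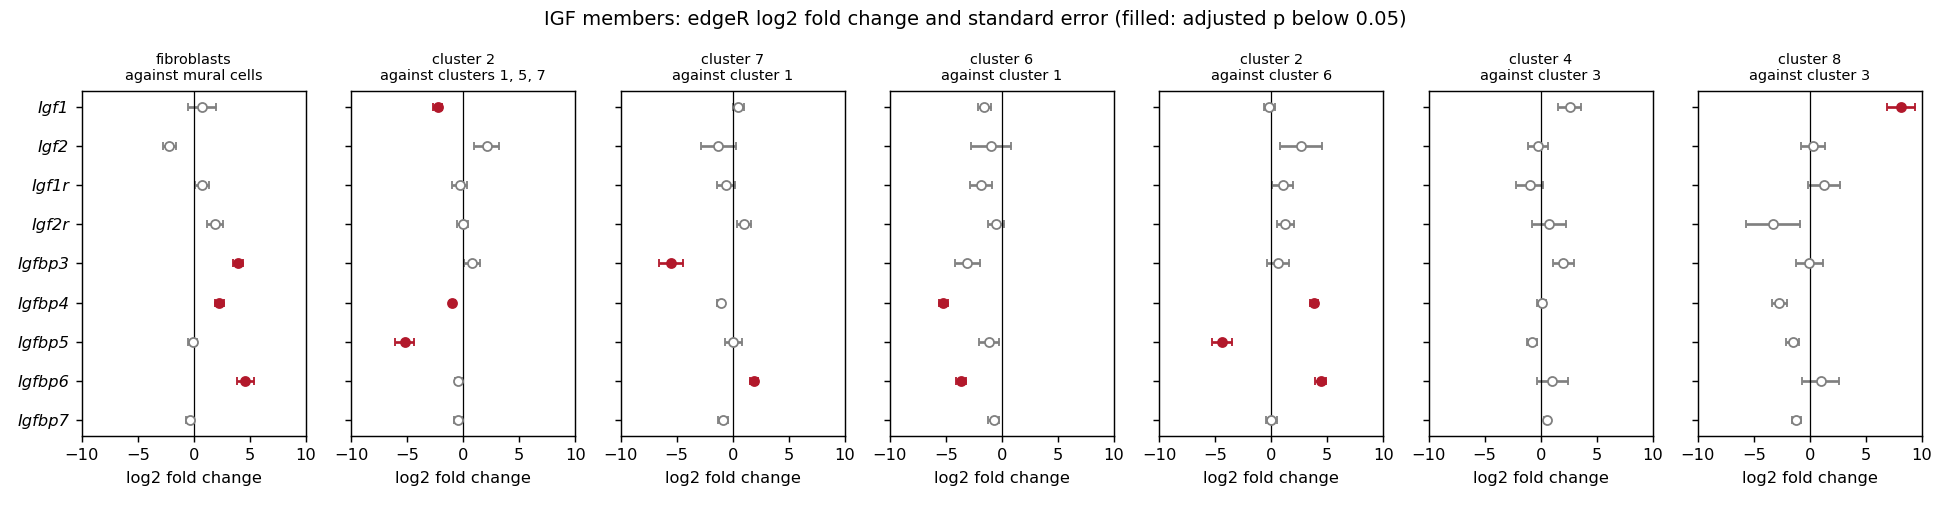
Log2 fold change and standard error of the 9 members tested (vertical axis) in 7 comparisons, positive where the class named at the top of a panel is higher, from edgeR on counts summed per reporter line. Filled points passed an adjusted p of 0.05, which Igfbp4 and Igfbp6 did in 4 comparisons each and Igf2, both receptors and Igfbp7 did in none.

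Igf1, the ligand that growth hormone induces, was highest in interstitial smooth muscle cells, with a level of 326.5 counts per 500000 in the 52 Acta2GFP cells of cluster 8. Vascular smooth muscle cells had 2.93 in Acta2GFP, 0.392 in Cspg4dsRED and 1.53 in PdgfrbGFP. All 3 lines of cluster 3 thus lay far below the single sum of cluster 8, and Igf1 was the member called, with a log2 fold change of 8.12 ± 1.28 (SE, adjusted p = 0.0117 by edgeR). Cluster 8 has 1 sum and so no replicates of its own, and the p-value takes its spread from the sums of the other mural clusters. The call was lost with limma on means per cell (7.09, adjusted p = 0.0802). A level over 100 counts per 500000 was seen in 38 of the 56 cells of cluster 8 (67.9%, exact 95% interval 54.04 to 79.7) and in 0.0% of those of cluster 3 (upper bound 2.58%), intervals that cover counting error only.

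Among fibroblasts Igf1 was highest in base-to-middle cells, with 213.2 in Acta2GFP, 165.1 in Cspg4dsRED, 147.5 in PdgfrbGFP and slightly less in PdgfraGFP. The crypt base had 104.9, 118.04 and 77.3 in Acta2GFP, PdgfraGFP and PdgfrbGFP, and the middle 61.1, 81.4 and 76.2 in the same order. Every line of cluster 5 lay above every line of clusters 7 and 1, whose ranges overlap. The apex fell to 14.6, 6.20 and 16.8, and the middle-to-apex cluster had 11.8 in Acta2GFP and 24.1 in PdgfraGFP. Igf1 was lower in apex fibroblasts than in the clusters below (log2 fold change -2.30 ± 0.44, SE, adjusted p = 0.00307 by edgeR), a call lost without PdgfrbGFP (adjusted p = 0.0668). In middle-to-apex against middle cells its log2 fold change was -1.56 ± 0.55 (adjusted p = 0.181), which passed in 1 of 13 alternatives. Single cells carried much of the low levels, since 1 cell gave 58.97% of the apex level in Acta2GFP, 56.3% in PdgfraGFP, and 87.2% of the middle-to-apex level in Acta2GFP, where there are 10 cells.

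Over all fibroblasts Igf1 stood at 107.7, 113.97, 77.5 and 101.7 in Acta2GFP, Cspg4dsRED, PdgfraGFP and PdgfrbGFP, and over all mural cells at 203.3, 0.694 and 14.7 in Acta2GFP, Cspg4dsRED and PdgfrbGFP. The mural value of Acta2GFP, 52 of whose 84 mural cells were of cluster 8, was above all fibroblast values and the other mural values were below them. The log2 fold change of 0.71 ± 1.21 did not pass (adjusted p = 0.839).

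Igf2, the growth factor of fetal life and an imprinted gene, was scarce. It had a count in 12.6% to 44.6% of the cells of a cluster. Mural cells had 32.9, 12.5 and 35.8 counts per 500000 in Acta2GFP, Cspg4dsRED and PdgfrbGFP, and fibroblasts 2.97, 6.42, 16.7 and 4.54 in Acta2GFP, Cspg4dsRED, PdgfraGFP and PdgfrbGFP. The groups overlapped only through PdgfraGFP fibroblasts and Cspg4dsRED mural cells, and the log2 fold change of -2.20 ± 0.57 just missed the threshold (adjusted p = 0.0505 by edgeR, 0.00275 by DESeq2). Without Cspg4dsRED it passed (-2.71, adjusted p = 0.0419), as it did in 3 of 14 alternatives in all, with an adjusted p of up to 0.325. In apex fibroblasts, at 13.1, 10.4 and 23.6 in Acta2GFP, PdgfraGFP and PdgfrbGFP, its log2 fold change over the clusters below was 2.09 ± 1.13 (adjusted p = 0.339), which passed without PdgfraGFP (4.19, adjusted p = 0.0104) and in 2 of 14 alternatives in all. Few cells carried the levels, and 2 of the 64 PdgfraGFP cells of cluster 5 held 50% of that mean. Igf2 shares 98 of 5723 exon bases with its antisense gene Igf2os, which drew few counts.

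Igf1r, the signalling receptor, was low and even. Its means over lines ran from 7.72 in cluster 4 to 22.6 ± 6.8 (SD, n = 3) in cluster 1, and each cluster's range over lines overlapped that of the next in order. Fibroblasts against mural cells gave a log2 fold change of 0.69 ± 0.62 (adjusted p = 0.629 by edgeR). Counts were found in 17.6% to 46.2% of the cells of a cluster, and no difference was detectable at this depth.

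Igf2r was highest at the crypt base, with 32.4, 57.7 and 47.1 in Acta2GFP, PdgfraGFP and PdgfrbGFP, and in base-to-middle cells, with 36.8, 41.1, 34.9 and 61.6 in Acta2GFP, Cspg4dsRED, PdgfraGFP and PdgfrbGFP. It was near absent from interstitial smooth muscle cells at 0.797. Neighbouring clusters in the order of levels overlapped down to cluster 6, whose lowest line at 2.87 lay above cluster 8. Fibroblasts had a log2 fold change over mural cells of 1.90 ± 0.71 that did not pass (adjusted p = 0.160), though it did in 1 of 14 alternatives, with plates in place of lines (1.64, adjusted p = 0.0246). In apex against middle-to-apex cells Igf2r had a log2 fold change of 1.24 (adjusted p = 0.431 by edgeR), which passed in 2 of 13 alternatives, with values from 0.21 to 4.22. In middle-to-apex against middle cells it was -0.52 (adjusted p = 0.777 by edgeR), which passed in 1 of 13, with values from -3.51 to 0.37. Airn, the antisense gene within Igf2r, drew 10837 counts but shares no exon base with it.

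**Figure D2:**
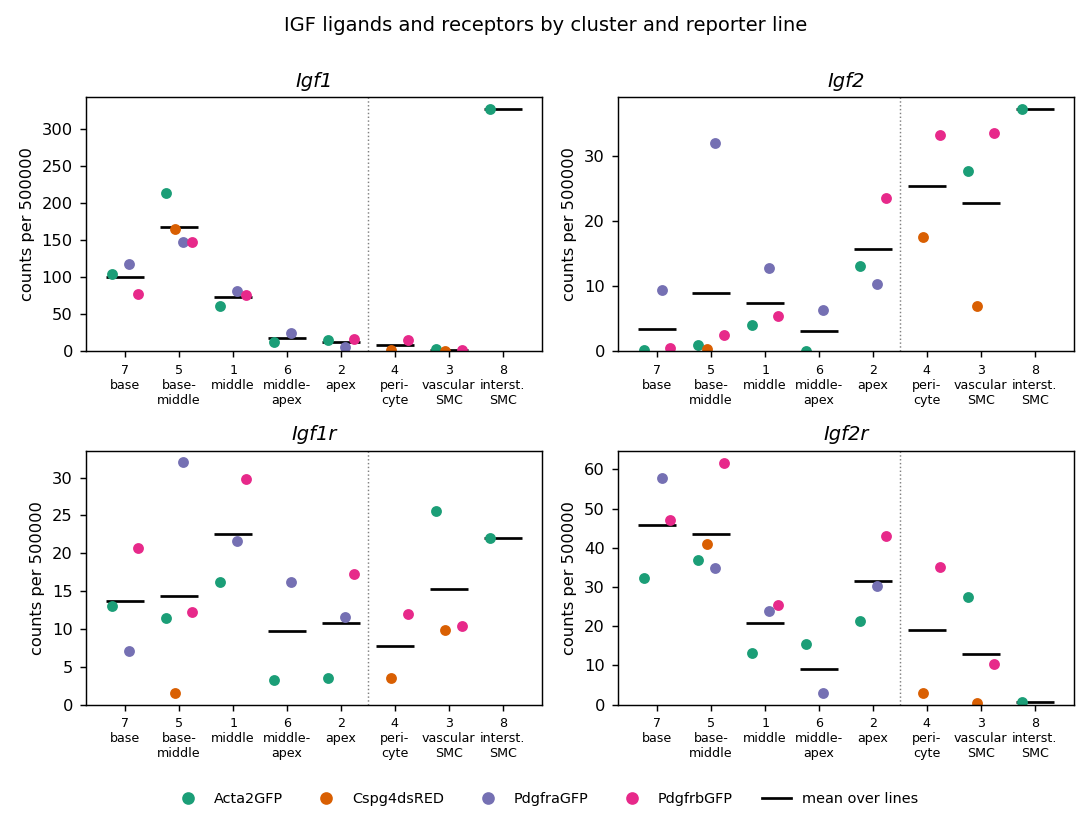
Mean level of the ligands Igf1 and Igf2 and the receptors Igf1r and Igf2r (vertical axis, counts per 500000) in 8 clusters (horizontal axis, fibroblasts left of the dotted line and mural cells right of it), 1 point per reporter line with at least 10 cells and a bar for the mean over lines. Igf1 reaches 326.5 in cluster 8 and at most 2.93 in cluster 3, and the highest level of Igf2 or either receptor is 61.6.

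Igfbp3, the main carrier of IGFs in blood, was highest in middle fibroblasts. Cluster 1 had 1142, 1048 and 1188 counts per 500000 in Acta2GFP, PdgfraGFP and PdgfrbGFP, or 1126 ± 71.4 (SD, n = 3). The crypt base had 15.5, 3.43 and 49.9 in the same lines. In cluster 1 the PdgfraGFP mean joined 238.9 on plate colon_1075s and 1522 on plate colon_439s, a spread that the SD over lines does not show. No line of cluster 7 came near a line of cluster 1, and Igfbp3 was lower at the base (log2 fold change -5.52 ± 1.06, SE, adjusted p = 0.0215 by edgeR). The call was lost without Acta2GFP (adjusted p = 0.429), where cluster 7 keeps 15 PdgfraGFP and 76 PdgfrbGFP cells, and among cells of 100000 to 400000 counts (-5.07, adjusted p = 0.107). Above the middle the lines disagreed, with 167.6, 18.3 and 305.1 in apex cells of Acta2GFP, PdgfraGFP and PdgfrbGFP and 48.7 and 244.1 in middle-to-apex cells of Acta2GFP and PdgfraGFP. Single cells carried several of these means, since 1 cell gave 39.7% of the apex level in Acta2GFP, and 73.7% and 59.2% of the middle-to-apex levels in Acta2GFP and PdgfraGFP. Its log2 fold change of -3.10 between clusters 6 and 1 did not pass (adjusted p = 0.191), but passed in 1 of 13 alternatives, with DESeq2 (-3.05, adjusted p = 0.0448).

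In base-to-middle cells Igfbp3 stood at 24.5, 116.03, 47.6 and 93.5 in Acta2GFP, Cspg4dsRED, PdgfraGFP and PdgfrbGFP. Of the 13 Cspg4dsRED cells 5 had a count, and 1 gave 96.8% of the level. Thus clusters 5 and 1, which neighbour each other on the crypt axis, did not overlap in any line. Over all fibroblasts its level was 438.2, 312.4, 349.3 and 555 in these lines, and over mural cells 12.7, 12.97 and 68.7 in Acta2GFP, Cspg4dsRED and PdgfrbGFP. The 4 fibroblast values all lay above the 3 mural values, by a log2 fold change of 3.95 ± 0.46 (adjusted p = 0.00159), which passed under all 14 alternatives with values from 3.24 to 5.40.

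Igfbp4, a carrier that mostly restrains IGF action and is the classic substrate of PAPP-A, was high from base to middle. The middle had 1571, 939.5 and 1403 in Acta2GFP, PdgfraGFP and PdgfrbGFP, base-to-middle cells 911, 1226, 814 and 977 in Acta2GFP, Cspg4dsRED, PdgfraGFP and PdgfrbGFP, and the base 535, 444.5 and 590.1. Clusters 1 and 5 overlapped, and cluster 7 lay below both. In middle-to-apex cells the level dropped to 25.5 in Acta2GFP and 17.5 in PdgfraGFP, whereas apex cells again had 432.3, 265.9 and 487 in Acta2GFP, PdgfraGFP and PdgfrbGFP. Cluster 6 was below every other fibroblast cluster in each of its lines.

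Middle-to-apex cells were lower than middle cells in Igfbp4 (log2 fold change -5.24 ± 0.40, SE, adjusted p = 1.18e-05 by edgeR), and apex cells were higher than middle-to-apex cells by 3.83 ± 0.37 (adjusted p = 6.94e-05). The former call held in all 13 alternatives that could be fitted, and the latter was lost without Acta2GFP (3.61, adjusted p = 0.0517). Apex cells were also below the clusters beneath them (log2 fold change -0.97 ± 0.24, adjusted p = 0.0161). This smaller difference was lost without Acta2GFP (adjusted p = 0.117) or PdgfrbGFP (adjusted p = 0.0837). Base against middle gave -1.07 (adjusted p = 0.0989), which passed with the reporter line as a replicate block (-1.05, adjusted p = 0.0325) and without plate colon_1075s (-1.22, adjusted p = 0.0489), and in 4 of 14 alternatives in all, with an adjusted p of up to 0.810.

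Mural cells had far less Igfbp4, with 113.3, 194.7 and 232.1 in Acta2GFP, Cspg4dsRED and PdgfrbGFP against 988, 1170.0, 599.5 and 1061 in fibroblasts of Acta2GFP, Cspg4dsRED, PdgfraGFP and PdgfrbGFP. The classes did not overlap, and the log2 fold change was 2.27 ± 0.38 (adjusted p = 0.00780). Without PdgfrbGFP the size was kept and the call was not (2.44, adjusted p = 0.0677). Within mural cells, pericytes (269.8 and 208.3 in Cspg4dsRED and PdgfrbGFP) and vascular smooth muscle cells (198.2, 112.2 and 267.99 in Acta2GFP, Cspg4dsRED and PdgfrbGFP) overlapped, and interstitial smooth muscle cells had 30.997. Their log2 fold change of -2.75 against vascular smooth muscle cells missed the threshold (adjusted p = 0.0954), and passed in 4 of 12 alternatives with values from -3.47 to -1.73. Since cluster 8 is a single sum with no spread of its own, these p-values do not measure how it varies.

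Igfbp5, a binding protein that also attaches to matrix, was nearly silent at the apex. Apex cells had 1.01, 1.57 and 9.20 counts per 500000 in Acta2GFP, PdgfraGFP and PdgfrbGFP. The middle had 164.4, 355.8 and 198.5 and the base 241.1, 158.7 and 185.1 in these lines, and base-to-middle cells 97.2, 363.6, 26.5 and 79.9 in Acta2GFP, Cspg4dsRED, PdgfraGFP and PdgfrbGFP. Even the lowest of these values was above the highest apex value, and the apex was lower (log2 fold change -5.24 ± 0.87, SE, adjusted p = 0.000958 by edgeR). The call held in all 14 alternatives, from -6.75 to -4.83. At 50000 counts per cell, to which each cell was thinned, 19.1% of apex cells had an Igfbp5 count (exact 95% interval 12.8 to 26.9), against 78.8% of middle cells (74.9 to 82.4). These intervals pool the cells of all lines and cover counting error only. By line the thinned share was 11.4%, 10.9% and 46.7% at the apex in Acta2GFP, PdgfraGFP and PdgfrbGFP and between 75.7% and 81.5% in the middle, so the lines differed more at the apex than the pooled interval shows and did not overlap between the clusters. Unthinned, the shares were 50.4% and 94.4%.

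Middle-to-apex cells had 19.5 in Acta2GFP and 73.9 in PdgfraGFP, above the apex and below the middle of the same line, and in PdgfraGFP above base-to-middle cells. In Acta2GFP 1 of the 10 cells gave 69.97% of the level. The PdgfraGFP mean joined 157.5 on plate colon_1075s and 2.18 on plate colon_439s. Apex cells were lower than middle-to-apex cells (log2 fold change -4.37 ± 0.91, adjusted p = 0.0188). Without plate colon_1075s this became -1.29 (adjusted p = 0.498), without PdgfraGFP -1.68 (adjusted p = 0.261) and without Acta2GFP -4.83 (adjusted p = 0.163). The size of the difference thus rested on PdgfraGFP and its plate colon_1075s, and without Acta2GFP it was as large but no longer called. Between the archetypes Igfbp5 was level, with 148.8, 308.97, 129.8 and 138.03 in fibroblasts of the 4 lines and 135.4, 155.5 and 229.2 in mural cells of Acta2GFP, Cspg4dsRED and PdgfrbGFP. The ranges overlapped, and the log2 fold change was -0.13 ± 0.38 (adjusted p = 0.917). Igfbp2, its neighbour on chromosome 1 across a gap of 5457 bases, was all but unread, with 14 counts in 6 of 1646 cells.

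Igfbp6, with its preference for IGF2, declined from base to middle. The base had 852, 807 and 743 in Acta2GFP, PdgfraGFP and PdgfrbGFP, base-to-middle cells 684.8, 448.4, 643 and 679.8 in Acta2GFP, Cspg4dsRED, PdgfraGFP and PdgfrbGFP, and the middle 181.2, 229.2 and 174.2. The 3 clusters did not overlap. Base was above middle by a log2 fold change of 1.92 ± 0.36 (SE, adjusted p = 0.0193 by edgeR), which missed without Acta2GFP (1.84, adjusted p = 0.0661) and without PdgfrbGFP (1.88, adjusted p = 0.351). Higher on the crypt it was not graded, with 21.9 and 13.5 in middle-to-apex cells of Acta2GFP and PdgfraGFP, and from 226.8 in Acta2GFP to 390.1 in PdgfraGFP in apex cells.

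Middle-to-apex cells were thus below middle cells in Igfbp6 (log2 fold change -3.67 ± 0.47, adjusted p = 0.00119), and apex cells above middle-to-apex cells by 4.42 ± 0.48 (adjusted p = 0.000316). Both calls held in all 13 alternatives that could be fitted. Igfbp4 and Igfbp6 were therefore both low in cluster 6 beside high values on either side of it. Cluster 6 rests on 10 Acta2GFP and 26 PdgfraGFP cells. The 4 smooth muscle markers Acta2, Myh11, Cnn1 and Actg2 summed to 1454.4 and 488.8 there in Acta2GFP and PdgfraGFP, against 11.03 to 315.4 in the line means of the other fibroblast clusters and 9657.9 in cluster 8. Most of this sum was Acta2, at 802.9 over cluster 6, whereas Myh11 was 39.9, against 35.1 at the apex, and Cnn1 (1.28) and Actg2 (4.34) were within the range of the other fibroblast clusters. Tagln, a contractile gene counted with the mural markers, was 193.7, against 6.04 to 25.3 in the other fibroblast clusters. The 4 pericyte markers summed to 203.4 and 211.5, against 1.38 to 119.1 in the other fibroblast clusters. Kcnj8 (126.2) and Abcc9 (109.3) made up nearly all of it, Rgs5 was 3.78, below the 53.6 of cluster 1, and Higd1b was at 0. The fibroblast markers stood at 3187 to 3682 in cluster 6, against 1051.1 in cluster 8, where Igfbp4 was 30.997 and Igfbp6 24.1. The part of these markers in the low levels of cluster 6 was not tested.

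Between fibroblasts, at 492, 453.5, 399.8 and 448.02 in the 4 lines, and mural cells, at 28.5, 2.27 and 25.5 in Acta2GFP, Cspg4dsRED and PdgfrbGFP, Igfbp6 differed by a log2 fold change of 4.59 ± 0.75 (adjusted p = 0.00705). No mural value approached a fibroblast value, and without PdgfrbGFP the fold change was 4.99 (adjusted p = 0.0658). In mural cells the low levels of Igfbp6 and Igfbp3 moved with the summed counts of the gene in the other wells of the same plate row or column, with a mean within-plate Spearman correlation of 0.471 and 0.425 over 6 plates, whose cells share them. It was 0.340 for Igf1, and between 0.0593 for Igfbp4 and 0.0872 for Igf1r among the remaining members examined in these cells. The part of this in the mural levels was not tested, and for Igfbp6 and Igfbp3 the fibroblast level was higher than the mural one in each of the 3 lines that had both.

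Igfbp7, also called angiomodulin, was detected in 95.6% to 100% of the cells of each cluster. Pericytes had 1147 and 1483 in Cspg4dsRED and PdgfrbGFP, and vascular smooth muscle cells 799, 697 and 1061 in Acta2GFP, Cspg4dsRED and PdgfrbGFP. In fibroblasts the middle had 983, 748 and 1098 and the base 454.8, 373.6 and 542.5 in Acta2GFP, PdgfraGFP and PdgfrbGFP, and base-to-middle cells 763, 869.9, 798 and 844 in Acta2GFP, Cspg4dsRED, PdgfraGFP and PdgfrbGFP. Pericytes stood above every other class, and cluster 7 lay below clusters 1 and 5 in every line. Base against middle gave a log2 fold change of -0.85 (adjusted p = 0.563), which passed in 1 of 14 alternatives, without plate colon_1075s (-1.05, adjusted p = 0.0307).

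Apex cells had 434.1, 251.7 and 646 of Igfbp7 in Acta2GFP, PdgfraGFP and PdgfrbGFP, middle-to-apex cells 648 and 314.7 in Acta2GFP and PdgfraGFP, and interstitial smooth muscle cells 296.4. The ranges of clusters 2 and 6 overlapped, and the single line of cluster 8 lay within that of cluster 2. The PdgfraGFP apex mean joined 42.6 on plate colon_1075s and 425.99 on plate colon_439s, and on the latter alone all apex lines lay above cluster 8. Over the archetypes fibroblasts had 729, 767, 566 and 901 in the 4 lines and mural cells 497, 933 and 1280.2 in Acta2GFP, Cspg4dsRED and PdgfrbGFP, with a log2 fold change of -0.37 ± 0.31 (adjusted p = 0.589 by edgeR). Igfbp7 shares 85 of its 1209 exon bases with Polr2b, a subunit of RNA polymerase II on the opposite strand, and the counting was not stated to use strand. Polr2b drew 77954 counts and Igfbp7 772650, and the part of shared reads was not tested.

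**Figure D3:**
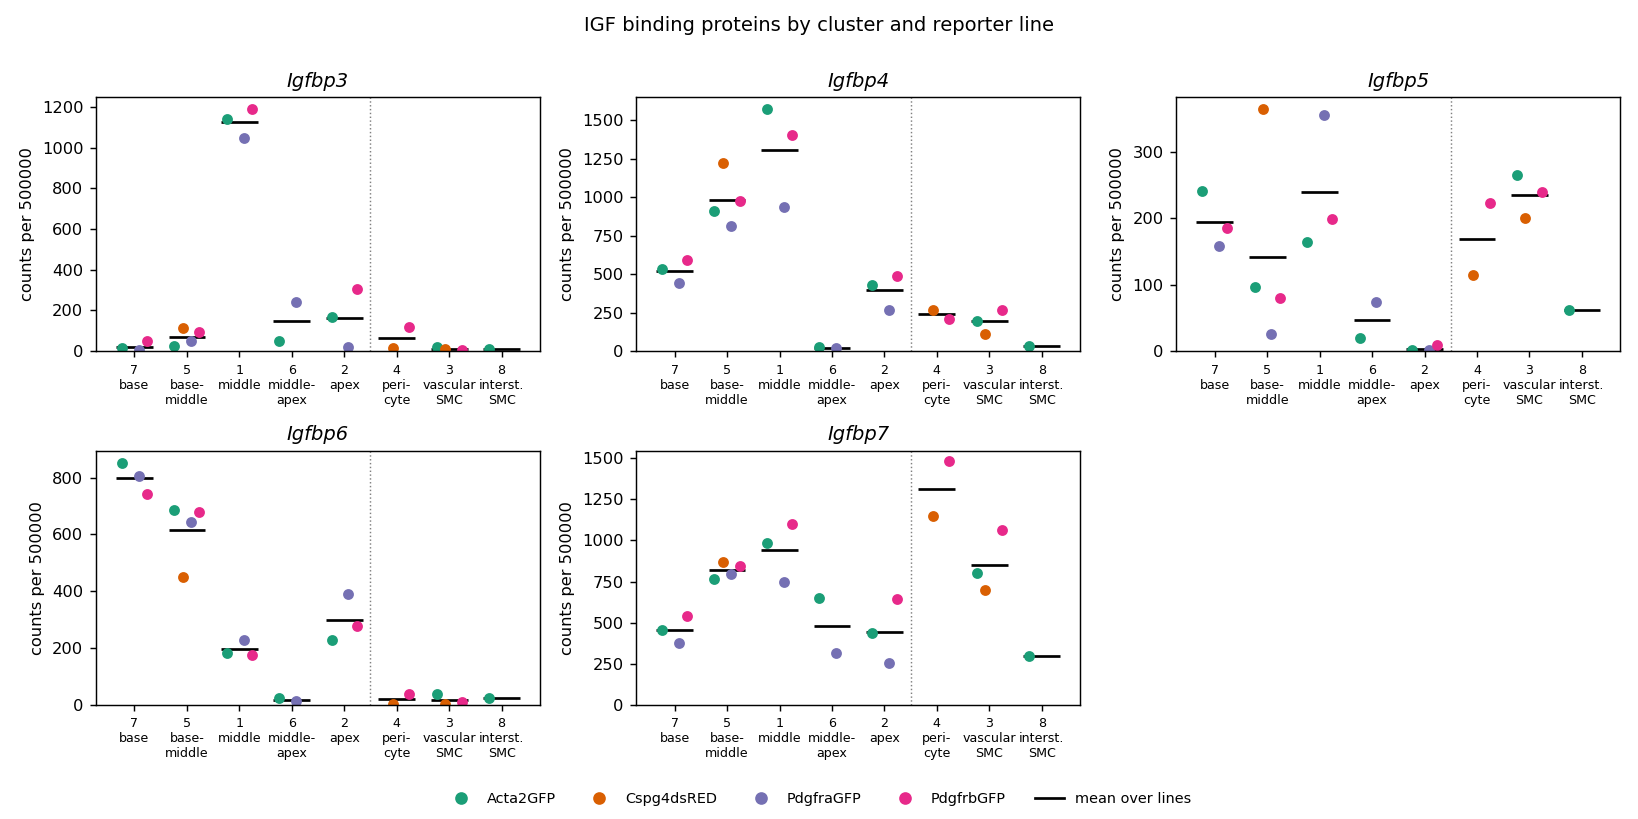
Mean level of 5 binding proteins (vertical axis, counts per 500000) by cluster (horizontal axis, fibroblasts left of the dotted line), 1 point per reporter line with at least 10 cells and a bar for the mean over lines. Igfbp3 lies between 1048 and 1188 in cluster 1 and at most at 305.1 elsewhere, Igfbp6 falls from base to middle, Igfbp4 and Igfbp6 are at most at 25.5 in cluster 6, and Igfbp5 at most at 9.20 in cluster 2.

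The mix of binding proteins was compared per length, as counts per 500000 divided by kilobases of merged exons, since a longer transcript collects more reads. The summed level was 1650.4 ± 192.6 per kilobase (SD, n = 3 lines) in the middle, 1498 ± 55.7 (n = 4) in base-to-middle cells, 1256 ± 81.1 (n = 3) at the base, 777 ± 190.9 (n = 3) at the apex and 473.4 ± 150.8 (n = 2) in middle-to-apex cells. Pericytes had 1209.7 ± 246.01 (n = 2), vascular smooth muscle cells 806 ± 173.9 (n = 3) and interstitial smooth muscle cells 287.1 in their line. Igfbp7 held 83.6% to 91.6% of the sum in every mural line mean, and Igfbp6 led only at the base, with 57.5% ± 5.5 (SD) and in 3 of 3 lines. Base-to-middle cells were shared between Igfbp7 at 45.2% ± 2.3 and Igfbp6 at 36.9% ± 6.7. In the middle Igfbp7 held 46.99% ± 3.7, Igfbp3 21.9% ± 1.3, Igfbp4 17.7% ± 2.9 and Igfbp6 10.9% ± 3.1. In apex cells Igfbp6 held 36.6% ± 17.02, and it led Igfbp7 there in the PdgfraGFP line alone. That lead came from plate colon_1075s, with 380.99 per kilobase of Igfbp6 against 35.2 of Igfbp7, while plate colon_439s had 325.7 against 352.4. Without plate colon_1075s Igfbp6 held 31.9% ± 9.03 at the apex and led in no line. Igfbp6 and Igfbp7 have the shortest exons of the binding proteins, at 1112 and 1209 bases, and the highest counts per exon base, at 1.27 and 1.36. Igfbp7 also shares exon bases with Polr2b, and how far either shifts the shares was not tested.

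**Figure D4:**
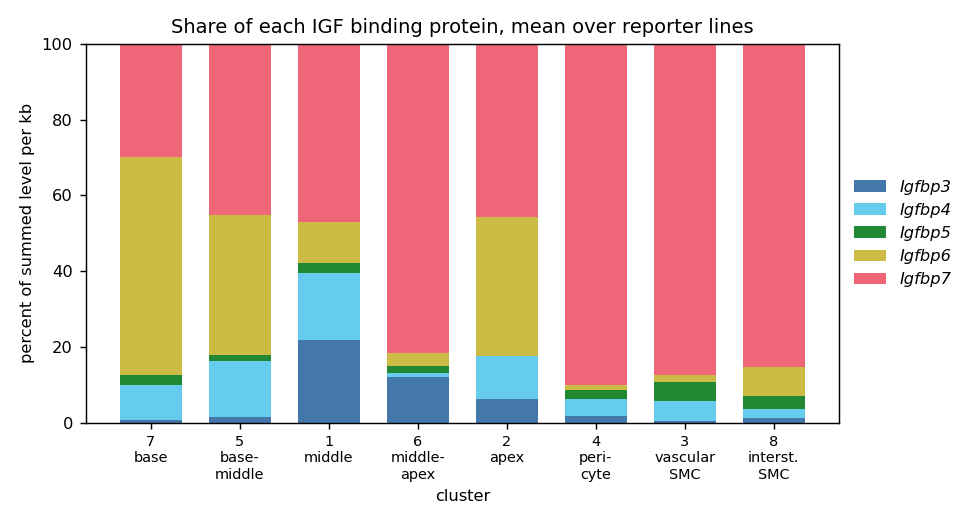
Share of each binding protein (vertical axis, percent of the summed level per kilobase, mean over reporter lines) in 8 clusters (horizontal axis). Igfbp6 makes up 57.5% of the sum in cluster 7, Igfbp3 21.9% in cluster 1, and Igfbp7 81.7% to 90.1% in clusters 3, 4, 6 and 8.

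Between pericytes and vascular smooth muscle cells 0 members were called by edgeR, DESeq2 or limma, which called 0.668%, 5.92% and 0.0% of all genes. By edgeR 1 of 9 members and 1778 genes, or 10.9% of those tested, had an unadjusted p under 0.05, so the share of members is near that of all genes. That member was Igf1, at 0.968 and 14.5 in pericytes of Cspg4dsRED and PdgfrbGFP against 0.392 and 1.53 in vascular smooth muscle cells of these lines. The log2 fold change was 2.60 ± 1.01 (adjusted p = 0.373), and it passed without Cspg4dsRED (3.11, adjusted p = 4.09e-05), where 1 pericyte sum remains and is assumed to vary like the others, and with no filter on low counts (2.64, adjusted p = 0.00631), but in none of the other 11 of 13 alternatives, whose lowest value was -1.16. In the PdgfrbGFP pericytes 1 cell gave 36.01% of the Igf1 level. The summed fibroblast markers were 733.5 and 1689.5 in pericytes of Cspg4dsRED and PdgfrbGFP, against 112.1 and 218.1 in vascular smooth muscle cells. Their part in the Igf1 levels was not tested.

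The level of a gene within cluster 1, which 3 lines fill with at least 2 plates each, was compared between lines over plates. No member differed between Acta2GFP and PdgfrbGFP or between PdgfraGFP and PdgfrbGFP by edgeR, DESeq2 or limma, and 0 of 9 had an unadjusted p under 0.05. The background was 0.0% of 15700 genes in each comparison by edgeR, where 2.77% and 6.75% of genes had an unadjusted p under 0.05, and DESeq2 called 0.146% and 2.64% of genes. Plates of a line may share mice. The PdgfrbGFP plates colon_073s, colon_075s, colon_685s and colon_686s had 1143, 1194, 1636 and 864 of Igfbp3 and 73.5, 48.4, 140.7 and 217.2 of Igf1, and the Acta2GFP plates colon_513s and colon_682s had 1215 and 1069 of Igfbp3 and 56.1 and 66.1 of Igf1. The plates of these lines overlapped for Igfbp3, whereas Igf1 was higher on colon_685s and colon_686s, with 19 and 12 cells, than on the others.

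The PdgfraGFP plates did not match. In cluster 1 Igfbp7 stood at 162.4 on plate colon_1075s (24 cells) and 1091 on plate colon_439s (41 cells), Igfbp3 at 238.9 and 1522, Igfbp4 at 515 and 1188, and Igfbp6 at 244.3 and 220.3. Igfbp3 and Igfbp7 were at least 4-fold lower on colon_1075s, and the same fold was reached by 3.6% of 1307 genes with a level of at least 100 on either plate. At least 4-fold higher were 40 genes, and the median log2 difference was 0.34. The gap in Igfbp7 recurred in apex cells, at 42.6 against 425.99, and in middle-to-apex cells, at 92.3 against 505, while Igfbp6 differed little in apex cells, at 423.7 against 362.1. The median count per cell was 725043.5 on colon_1075s and 249443 on colon_439s, and the part of depth or of the plate in these gaps was not tested. This comparison of plates was chosen after the values had been seen.

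Genes that release, sense or transmit IGFs were counted in 4 lists. Of the IGFBP proteases and their inhibitors, 8 genes with 7 tested, 5 were higher in fibroblasts than in mural cells and none was lower (median log2 fold change 2.31 over the list), where 6.57% of all genes were called. Of 18 receptor adaptors and genes of the PI3K, AKT and FOXO arm 2 were higher and 1 lower (median -0.25), against the same 6.57%, and of 4 tested among 9 other IGF genes and of 6 genes of the growth hormone axis none was called. Igfbp1, Igfals and Igfbpl1 were at most at 0.0188 in any cluster mean, and Pappa2 at 0.134.

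Htra3, a secreted serine protease, was at 802, 1139.8, 592 and 1008 in fibroblasts of Acta2GFP, Cspg4dsRED, PdgfraGFP and PdgfrbGFP and at 29.2, 6.74 and 34.4 in mural cells of Acta2GFP, Cspg4dsRED and PdgfrbGFP. The classes did not overlap, and its log2 fold change of 5.23 ± 0.71 (adjusted p = 0.00292 by edgeR) passed in all 14 alternatives. Pappa, which encodes PAPP-A, differed by 4.72 ± 0.87 (adjusted p = 0.0119), and Adam12, a metalloprotease that cleaves binding proteins, by 6.16 ± 1.27 (adjusted p = 0.0191) at levels of 3.01 to 8.68 in fibroblasts. Stc2, a stanniocalcin that blocks PAPP-A, differed by 2.31 ± 0.57 (adjusted p = 0.0416). Without PdgfrbGFP the calls of Pappa (adjusted p = 0.0784), Adam12 (0.131) and Stc2 (0.230) were lost, and without Acta2GFP those of Adam12 (0.0750) and Stc2 (0.157). Over 14 alternatives Pappa passed in 13, Stc2 in 10, with a lowest log2 fold change of 1.53, and Adam12 in 9, with a lowest of 2.54. With the reporter line as a replicate block all genes called fell from 1259 to 590, the 3 members still passed, and Adam12 (adjusted p = 0.111) and Stc2 (adjusted p = 0.0594) no longer did.

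Among adaptors, Grb14, an inhibitor of insulin receptor signalling, was lower in fibroblasts (log2 fold change -6.36 ± 1.11, adjusted p = 0.00944), being found at 12.1, 16.6 and 20.4 in vascular smooth muscle cells of Acta2GFP, Cspg4dsRED and PdgfrbGFP and at most at 0.571 in any fibroblast cluster. Foxo1, a transcription factor that AKT holds out of the nucleus, was higher in fibroblasts by 1.90 ± 0.44 (adjusted p = 0.0311), and Pik3r2, a regulatory subunit of PI3K, by 1.51 ± 0.31 (adjusted p = 0.0197). Neither passed with the replicate block, at an adjusted p of 0.0986 and 0.101. Without PdgfrbGFP none of the 3 passed (adjusted p = 0.0979 for Grb14, 0.0986 for Foxo1 and 0.0787 for Pik3r2), Foxo1 also failed without Acta2GFP (0.1996), Cspg4dsRED (0.0815) or PdgfraGFP (0.0532), and Pik3r2 without Acta2GFP (0.120). Over 14 alternatives Grb14 passed in 12, with values from -7.14 to -2.82, Foxo1 in 7, with an adjusted p of up to 0.319, and Pik3r2 in 9. With plates in place of lines the fold change of Pik3r2 was only 0.41 (adjusted p = 0.690).

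Along the crypt, Stc1, the other stanniocalcin, was at 33.4, 24.2 and 100.7 in apex cells of Acta2GFP, PdgfraGFP and PdgfrbGFP and at most at 1.13 in every other fibroblast mean. It was higher at the apex than in clusters 1, 5 and 7 by a log2 fold change of 7.90 ± 0.78 (adjusted p = 7.24e-06 by edgeR) and than in cluster 6 by 7.48 ± 1.57 (adjusted p = 0.0194), the latter lost without Acta2GFP (adjusted p = 0.315) and without PdgfraGFP (adjusted p = 0.109), and kept in 10 of 13 alternatives. Pappa was at 72.5, 44.9 and 79.3 at the apex, 33.4, 54.2 and 30.4 in the middle and 0.957, 0.553 and 0.782 at the base in these lines. Apex and middle overlapped through PdgfraGFP, and the base was below both in each line. Between them the level was not graded. Base-to-middle cells had 3.43 to 12.7, and middle-to-apex cells 0.535 in Acta2GFP and 124.02 in PdgfraGFP, the highest line mean of all clusters.

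Pappa was higher at the apex than in the clusters below by 3.68 ± 0.68 on the log2 scale (adjusted p = 0.00242) and lower at the base than in the middle (log2 fold change -5.27 ± 1.14, adjusted p = 0.0390). The former was lost without PdgfrbGFP (adjusted p = 0.0603), and the latter without PdgfrbGFP (adjusted p = 0.519), without Acta2GFP (adjusted p = 0.0747) and with the replicate block (adjusted p = 0.0521). Htra1 was higher at the apex by 1.65 ± 0.32 (adjusted p = 0.00360), lost without Acta2GFP (adjusted p = 0.0864), and Htra3 lower there (log2 fold change -2.65 ± 0.37, adjusted p = 0.000254). Htra3 was also lower in middle-to-apex than in middle cells (log2 fold change -3.84 ± 0.52, adjusted p = 0.00160, and 0.150 without Acta2GFP). Stc2 was concentrated in base-to-middle cells, at 317.9, 30.3, 140.4 and 185.7 in Acta2GFP, Cspg4dsRED, PdgfraGFP and PdgfrbGFP, and was at most 32.05 in other fibroblast means, so that only Cspg4dsRED overlapped them.

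Apex cells thus had 3 proteases or inhibitors called higher and 1 lower of 7 tested (median 0.11, against 0.02 for all genes), where 906 of all genes were higher and 515 lower, or 7.51% in all. The base had 1 lower (0.909% of genes called), middle-to-apex cells 1 lower (1.86%), and apex against middle-to-apex cells 1 higher (2.1%). Foxo1 was lower at the apex (log2 fold change -1.74 ± 0.50, adjusted p = 0.0449), a call kept in 5 of 14 alternatives and lost with the replicate block (0.0540) and without Acta2GFP (0.210), PdgfraGFP (0.0977) or PdgfrbGFP (0.241). Of the growth hormone axis only the receptor Ghr was called, lower at the base than in the middle (log2 fold change -1.94 ± 0.39, adjusted p = 0.0287), at 32.8, 20.6 and 35.6 against 133.9, 135.2 and 116.2 in Acta2GFP, PdgfraGFP and PdgfrbGFP. The lines did not overlap, but the call was lost without Acta2GFP (adjusted p = 0.197), PdgfraGFP (0.114), PdgfrbGFP (0.341) or plate colon_1075s (0.0676), and was kept in 8 of 14 alternatives. No gene of the 4 lists was called in the remaining comparisons of these clusters, between mural clusters or between lines in cluster 1. In apex cells 16 immediate early and heat shock genes, which dissociation can induce, summed to 11920.0 to 18647 counts per 500000 in the line means, against 1778 to 7402 in clusters 1, 5 and 7 and 1115 to 2095 in cluster 6. Vascular smooth muscle cells had 8457 to 14842, interstitial ones 9657.9 and pericytes 2398 to 2532. By plate, the log2 level averaged over these genes and over cells was highest on PdgfrbGFP plate colon_075s, at 8.02 against 4.75 to 6.05 on the other plates. The part of these genes in the differences between these clusters was not tested.

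**Figure D5:**
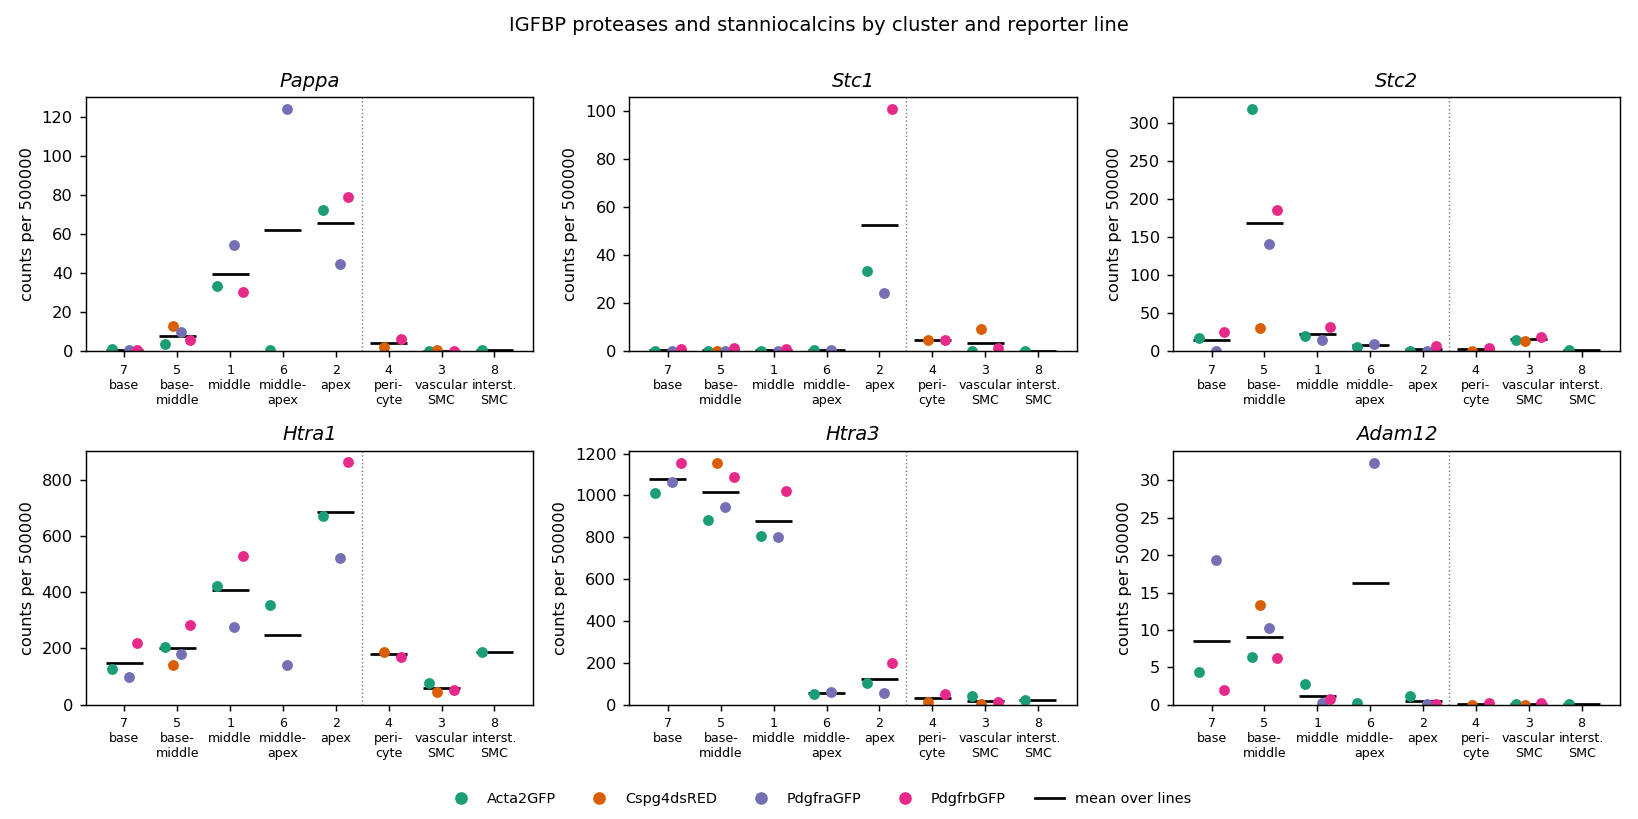
Mean level of 6 IGFBP proteases and stanniocalcins (vertical axis, counts per 500000) by cluster (horizontal axis, fibroblasts left of the dotted line), 1 point per reporter line with at least 10 cells and a bar for the mean over lines. Stc1 is at least 24.2 in cluster 2 and at most 9.16 elsewhere, Stc2 peaks in cluster 5, and Htra3 lies between 799.5 and 1155 in clusters 7, 5 and 1 and at most at 200.1 elsewhere.

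Likeness between genes was described by Pearson's r of log2 levels over the 21 means of a cluster in a line, which share lines, plates and depth, among 10346 genes. The genes most like Igf1 were Gstm1 (r = 0.944), Enpp3 (0.941) and Fmo2 (0.907). Those most like Igfbp6 were Qpct (0.964), Dpep1 (0.944) and Fbln2 (0.932), like Igfbp3 Cxcl13 (0.867), Tnfsf13b (0.857) and Gm16263 (0.792), and like Igfbp5 Timp3 (0.888), Ccn2 (0.865) and Fam107b (0.863). Genes like Igfbp4 included Gm17080 (0.837) and Slc29a1 (0.830), and Igfbp7 was most like its overlapping partner Polr2b (0.878), then Serpine2 (0.797) and Cabin1 (0.793). Igf2r, with Uba7 (0.888), Dnajc3 (0.874) and 1810014B01Rik (0.834), Igf2, with Gm2830 (0.833), Siva1 (0.799) and Hmgb2 (0.774), and Igf1r, with Aen (0.798), Usp42 (0.784) and Flywch1 (0.768), were too sparse for these values to carry weight. Between members the highest correlations were 0.823 for Igf2r with Igfbp6, which the sparse counts of Igf2r limit in the same way, and 0.727 for Igf1 with Igfbp6.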

How the data were processed

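The deposited table holds raw read counts per gene and cell, which the authors made from single-end 50-base SmartSeq2 reads aligned with TopHat2 and Bowtie to GRCm38 and counted with featureCounts. The methods state filters on cell totals and a removal of doublets with samtools, and not what the latter did to reads or whether counting used strand. The table held 46517 genes and 92 ERCC spike-ins, with 1.36% of counts, which were left out. Cluster labels were the authors'. Counts were scaled to 500000 per cell and averaged per cluster and line for levels, in means of at least 10 cells, and summed per cluster and line (per plate within cluster 1) for tests.

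Sums were tested with edgeR 4.0.16 (glmQLFit, glmQLFTest, TMM, filterByExpr) in R 4.3.3, adjusted by Benjamini-Hochberg at 0.05, with SE taken as the log2 fold change over the square root of F. The code was tested on simulated data in which 200 genes of high counts were given a large fold change. That test does not measure power for small effects or for sparse genes. Alternatives were DESeq2 1.42.0, limma 3.58.1 on log2 of means with a pseudocount of 1, no filter, sums of at least 3 cells, plates for lines, leaving out a line or a plate, the line as a replicate block, and leaving out 799 cells with over 50 counts per 500000 of other cell types' markers. This filter on markers left out 286 of 425 cells of cluster 5, 177 of 223 of cluster 7 and 69 of 142 of cluster 4. In cluster 2 it left out 24 of 131. Its markers include Tek, which was high in clusters 5 and 7, so it did not remove cells of other types alone. A window of 100000 to 400000 counts per cell and leaving out plate colon_1075s were added after the data were seen. Fibroblast and mural sums of the same line deviated together (r 0.157 to 0.183 in 3 of 3 lines) and came from the same plates, whereas 13 of 26 pairs of fibroblast clusters had r over 0.1.

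All 10 members were named, with at most 4 called genes per list and comparison with the largest fold change, and the 3 genes most like each member among those of at least 20 counts per 500000 in a mean, of which 1 is not reported here. The members and lists were chosen with earlier results of these data known. Intervals are Clopper-Pearson at 95%. Promoters were read from RefSeq (GRCm38.p6), where all 10 members matched.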

Additional observations from a re-analysis of the deposited data

Results flagged for a closer look

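In base-to-middle fibroblasts the PdgfraGFP line had an Igf2 level of 32.036 counts per 500000, far from the next line at 2.51 and the lowest at 0.324, and 1 of its 64 cells gave 41.2% of that level. Igf2r in middle fibroblasts stood at 48.506 on PdgfrbGFP plate colon_686s, which holds 12 such cells, against 20.8 to 25.04 on the other 3 plates. Over all fibroblasts Igfbp5 was at 308.97 in Cspg4dsRED, which has 28 fibroblasts, against 129.8 to 148.8 in the other lines. These 3 were found among 27 groups examined by Dixon's test of the extreme sample, which chance alone marks in about 1 in 20 groups.

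Igfbp7 was higher in fibroblasts than in mural cells on each of 2 Acta2GFP plates, by a mean of 209.65 counts per 500000, and lower on each of 3 PdgfrbGFP plates, with a mean difference of -414.58. It was the only opposed pair flagged among 45 effects examined. Only fibroblasts against mural cells and cluster 7 against cluster 1 had 2 lines with at least 2 plates each. The other effects rested on 1 such line and could not be opposed. The difference between the lines was not tested. Of the 84 Acta2GFP mural cells 52 were of cluster 8, where Igfbp7 was lowest among mural clusters at 296.4, and the part of that makeup was not tested.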

How the results depend on the processing

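Over all 98 pairs of a gene and a comparison, 1298 fold changes were recomputed under alternatives, of which 1126 kept their direction and side of the threshold, 66 lost a call, 24 gained one and 82 changed sign. Of these sign changes 72 were in 50 pairs of a member and a comparison that passed under no setting, 29 of which changed sign at least once, and which are not described singly. Leaving out a line in turn gave 1 to 4 members called for fibroblasts against mural cells, 1 to 4 for the apex against clusters 1, 5 and 7, 0 to 2 for cluster 7 against 1, 2 for cluster 6 against 1, 1 to 3 for cluster 2 against 6, 0 to 1 for cluster 4 against 3 and 1 to 2 for cluster 8 against 3. The share of all genes called ran in the same order from 1.81% to 5.81%, 2.70% to 8.27%, 0.0748% to 1.08%, 0.135% to 2.89%, 0.125% to 3.49%, 0.2997% to 2.44% and 2.55% to 4.23%. Plates in place of lines gave 5 members for fibroblasts against mural cells (16.1% of genes), 5 for cluster 2 against 6 (4.28%) and 3 for cluster 8 against 3 (3.49%). For cluster 8 against 3 DESeq2 gave 2 (5.89%), no filter 2 (1.84%) and limma 0 (1.89%), no filter gave 1 for cluster 4 against 3 (1.85%), and leaving out plate colon_1075s gave 4 for cluster 7 against 1 (0.646%). The causes were not tested. With the reporter line as a replicate block the members called were 3, 3, 3, 2, 3, 0 and 1 in the order of the first 7 comparisons, and the calls changed by it are given above.

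The other sign changes were in values without a call as reported, ranging with each line left out in turn from -1.51 to 0.83 for Igf1 in cluster 2 against 6 (0.83 without PdgfraGFP, 0.066 without PdgfrbGFP), -1.16 to 3.70 for Igf1 in 4 against 3 (-1.16 without PdgfrbGFP), -3.51 to 0.37 for Igf2r in 6 against 1 (0.37 without PdgfraGFP) and, in fibroblasts against mural cells, -0.017 to 4.15 for Igf1 and -0.0083 to 1.78 for Igf1r (both lowest without Cspg4dsRED) and -0.71 to 0.15 for Igfbp5 (0.015 without Acta2GFP, 0.070 without PdgfraGFP, 0.15 without PdgfrbGFP), which was 0.0040 with limma. Over the other alternatives the share of genes called ran from 3.08% to 16.1% for fibroblasts against mural cells, 5.41% to 12.4% for the apex, 0.600% to 4.06% for cluster 7 against 1, 1.17% to 10.4% for 6 against 1, 1.25% to 11.9% for 2 against 6, 0.0% to 5.92% for 4 against 3, 0.580% to 5.89% for 8 against 3, and up to 0.146% and 2.64% within cluster 1. The depth window left too few cells for cluster 6 and for PdgfraGFP within cluster 1.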
